A study of Rattus norvegicus with 20 samples.

Results

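Gene expression in the cortical collecting ducts of water-loaded rats was compared between day 4 and day 2 of the load. The libraries were chosen by their labels: 4 water-loaded rats of day 2 and 3 of day 4, which are 7 of the 20 libraries of the series, each from a different rat. All 14472 genes that passed a filter on low counts were tested. Male Sprague-Dawley rats 5 weeks of age were used, and cortical collecting duct was microdissected from the left kidney after collagenase. Every rat of the series, controls included, carried a minipump that delivered DDAVP, an agonist of the vasopressin V2 receptor, at 5 ng per hour. Water was given within gelled food, at 50 mL per day to water-loaded and 25 mL per day to control animals. The same comparison of days was made in 4 control rats of day 2 and 3 of day 4. No untreated rats without DDAVP were analysed here.

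The cortical collecting duct is the segment in which vasopressin sets how much water the kidney recovers. In its principal cells vasopressin acts through the V2 receptor, cyclic AMP and protein kinase A to raise the amount of aquaporin-2 and its insertion into the apical membrane. The intercalated cells of the same duct secrete protons or bicarbonate. When water intake stays high under constant vasopressin, the kidney regains the ability to excrete water, which is called vasopressin escape, and aquaporin-2 falls.

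Reads counted on genes numbered 63976081, 56399384, 63119659 and 43038371 in the 4 day 2 water-loaded rats and 33527913, 40647891 and 40838567 in the 3 day 4 rats, so the days did not overlap in depth. The factors that scale library sizes (TMM) did not overlap either, at 0.938 to 1.15 and 1.19 to 1.22. The number of genes detected was 14373, 13651, 15266 and 15261 in the 4 day 2 rats and 14279 to 14482 at day 4. Across 7496 genes with a mean of at least 10 CPM (reads on a gene relative to the library total, scaled by these factors), log2 levels correlated at 0.811 to 0.917 between day 2 rats and at 0.865 to 0.900 between day 4 rats, against 0.752 to 0.906 between days. The day 2 rats were split in these correlations. Rats 3 and 4 correlated at 0.917 with each other and at 0.853 to 0.906 with the day 4 rats. With day 2 rats 1 and 2 they correlated at 0.811 to 0.867. The labels do not say which libraries were prepared together, so day and library batch cannot be told apart. Day 2 rats 1 and 2 stood apart from rats 3 and 4 by the share of reads on 13 genes of the mitochondrial genome, 14.9, 12.6, 5.15 and 3.55% against 3.01, 3.601 and 2.39% at day 4. Values with only rats 1 and 2, or only rats 3 and 4, as day 2 are therefore given below beside each difference of a named gene, or median of a list, that they moved by more than 1.5 times. The cDNA was amplified from lysed tubules by a method written for single cells, and the common biological coefficient of variation was 1.06.

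No gene passed an adjusted p of 0.05 between day 4 and day 2 in water-loaded rats. By edgeR's quasi-likelihood test with Benjamini-Hochberg adjustment, 0 of 14472 genes were called (0%), and the smallest adjusted p was 0.118, for Aldh1a1. At an unadjusted p under 0.05 there were 298 genes higher at day 4 (2.06%) and 402 lower (2.78%), 700 in all where 724 are expected by chance. DESeq2 called 78 genes, 21 higher and 57 lower, and limma-voom called 1, Aldh1a1. Of the 78, 49 had a fitted log2 difference beyond 5 in either direction and 26 had a mean of at least 10 CPM. Every day 4 rat lay above every day 2 rat in 6.61% of genes and below in 6.24%. The median log2 difference over all genes tested was -0.040, and 47.7% of them were higher at day 4. Among the 7496 genes of at least 10 CPM, 2.43% were higher and 3.39% lower at an unadjusted p under 0.05, and 8.32% lay wholly above and 7.75% wholly below. The genes named next are the 8 per direction with the smallest p among those of at least 10 CPM whose days did not overlap. Their differences are descriptions of genes picked for that difference, and none passed.

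Aldh1a1 (ENSRNOG00000017619), a retinaldehyde dehydrogenase that makes retinoic acid, stood at 2464, 1967, 2276 and 2812 CPM in the 4 day 2 rats and at 1018, 1083 and 681 CPM in the 3 day 4 rats. Every day 4 rat lay below the lowest day 2 rat. The group levels were 2379.7 ± 354 CPM and 927 ± 215 CPM (SD, n = 4 and 3). It was 2.57-fold lower at day 4 (log2 difference -1.36, SE 0.23, adjusted p = 0.118 by edgeR). Leaving out any 1 of the 7 libraries kept the log2 difference between -1.49 and -1.20. The adjusted p was 0.0384 when only genes of at least 50 CPM were tested, 0.0297 by limma-voom and 5.91e-05 by DESeq2. In control rats the levels were 1833, 1726, 1063 and 1774 CPM at day 2 and 772, 678 and 791 CPM at day 4, again without overlap (log2 difference -1.10, SE 0.23). The difference between the treatments was -0.26 (SE 0.31).

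Promoter sequences are shown for Aldh1a1, the gene with the smallest p, and for the lower and the higher named gene with the most GC boxes, Lamp2 and Gins2. Each is the 250 bases before the start of the gene in RefSeq (build GRCr8), 5′ to 3′ on the strand of the gene. Capitals mark the GC box, searched as GGGCGG on both strands. They also mark the CCAAT box, searched by those 5 letters, on both strands. The TATA box was searched as TATAAA. The windows lie at chr1:227537370-227537619 on the plus strand for Aldh1a1, at chrX:122087674-122087923 on the minus strand for Lamp2 and at chr19:65548053-65548302 on the minus strand for Gins2.
Aldh1a1: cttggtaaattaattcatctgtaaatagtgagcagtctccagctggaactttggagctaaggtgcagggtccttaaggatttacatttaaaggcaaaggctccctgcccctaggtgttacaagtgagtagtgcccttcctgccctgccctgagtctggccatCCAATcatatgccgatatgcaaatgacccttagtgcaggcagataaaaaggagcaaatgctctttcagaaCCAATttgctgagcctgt
Lamp2: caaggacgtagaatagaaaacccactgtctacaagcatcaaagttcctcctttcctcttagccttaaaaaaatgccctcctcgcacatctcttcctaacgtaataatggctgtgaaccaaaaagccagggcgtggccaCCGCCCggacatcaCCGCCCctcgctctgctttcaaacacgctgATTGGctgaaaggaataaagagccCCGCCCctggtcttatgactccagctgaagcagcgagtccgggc
Gins2: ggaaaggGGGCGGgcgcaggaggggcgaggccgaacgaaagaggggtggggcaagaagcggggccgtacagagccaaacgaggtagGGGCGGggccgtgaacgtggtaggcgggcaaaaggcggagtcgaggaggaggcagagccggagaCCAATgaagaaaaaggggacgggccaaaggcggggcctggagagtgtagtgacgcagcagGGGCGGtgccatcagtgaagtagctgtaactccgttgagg
The Aldh1a1 window held 2 CCAAT boxes and no GC box, with 46.4% G and C and 1 CG pair. Lamp2 had 3 GC boxes and 1 CCAAT box at 52.4% G and C, and Gins2 the same numbers of boxes at 65.2%. Of the 16 named genes 12 matched a promoter by symbol. A GC box was in 3 of the 6 higher and 2 of the 6 lower genes matched, and a CCAAT box in 2 and 3. Among the 5749 promoters of genes of at least 10 CPM, 62.1% held a GC box, 36.9% a CCAAT box and 5.6% a TATA box, which none of the 12 held. A match is a description of the letters in these windows. The median content of G and C was 60.8% in those promoters, 60.8% in the higher and 54.4% in the lower named genes.

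Of the other 7 lower genes, 5 belong to energy metabolism or the mitochondrion. Ldhb, the lactate dehydrogenase subunit of oxidative tissues, stood at 2003, 2016, 919.9 and 1841 CPM at day 2 and at 749, 686 and 411 CPM at day 4 (log2 difference -1.46, SE 0.33). Day 2 rat 3 was the lowest of its group and still lay above every day 4 rat. Suclg1, the alpha subunit of succinyl-CoA ligase in the tricarboxylic acid cycle, stood at 769.9, 651, 579.6 and 613 against 319.8, 278 and 218 CPM (-1.27, SE 0.29). Sucla2, a beta subunit of the same enzyme, stood at 459, 374, 394 and 397 against 143, 159.9 and 159.7 CPM (-1.40, SE 0.33). Neither subunit overlapped between days, and they were 2.405-fold and 2.63-fold lower at day 4. Vdac3, a channel of the outer mitochondrial membrane, stood at 637, 507, 283 and 328 against 184, 158 and 110 CPM (-1.54, SE 0.40). Its difference was -1.02 with rats 3 and 4 alone as day 2. The fifth gene, Mt-nd2, is described with the other genes of the mitochondrial genome.

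The remaining lower genes, Btf3 and Lamp2, serve protein handling. Btf3, a subunit of the complex that binds nascent chains at the ribosome, stood at 444, 412, 257 and 286 CPM at day 2 and at 115, 165 and 126 CPM at day 4 (-1.37, SE 0.29). Lamp2, a protein of the lysosomal membrane, stood at 463, 415, 206 and 209 against 114, 135 and 85.5 CPM (-1.54, SE 0.34). In both genes, day 2 rats 1 and 2 were higher than rats 3 and 4. With rats 3 and 4 alone as day 2, the log2 difference was -1.002 for Btf3 and -0.90 for Lamp2. With rats 1 and 2 alone it was -1.66 and -1.98.

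Of the 8 higher genes, 4 encode proteins of the cell surface. Ptprf (ENSRNOG00000019977), a receptor-type tyrosine phosphatase of cell contacts, stood at 124, 257, 298 and 233 CPM at day 2 and at 712, 600 and 661 CPM at day 4. Every day 4 rat lay above the highest day 2 rat, and day 2 rat 1 was the lowest of the 7. It was 2.89-fold higher (log2 difference 1.53, SE 0.29, adjusted p = 0.335 by edgeR, and 0.0384 among genes of at least 50 CPM). Celsr2, a cadherin of planar cell polarity, stood at 98.7, 112, 187 and 184 against 296, 316 and 546 CPM (1.41, SE 0.33). Lrp5, a co-receptor for Wnt ligands, stood at 8.39, 20.6, 16.7 and 15.8 against 75.0, 62.4 and 67.1 CPM (2.15, SE 0.53). Lrp5 had the largest log2 difference of the 8 higher genes. Vasn, a membrane protein that binds TGF-beta, stood at 49.6, 45.8, 41.6 and 54.6 against 88.9, 134 and 379.8 CPM (2.07, SE 0.45). Day 4 rat 3 was far above the other rats for Vasn, and without it the log2 difference was 1.197.

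Irak1, a kinase of interleukin-1 and Toll-like receptor signalling, stood at 14.2, 23.8, 32.2 and 29.8 CPM at day 2 and at 52.2, 79.7 and 80.3 CPM at day 4 (1.499, SE 0.38). Zbtb7a, a zinc finger repressor of transcription, stood at 12.3, 21.0, 16.7 and 26.2 against 45.3, 67.2 and 67.6 CPM (1.66, SE 0.42). Gins2, a subunit of the replicative helicase, stood at 25.9, 41.2, 77.1 and 58.5 against 206, 173 and 147 CPM (1.79, SE 0.46). Day 2 rat 1 was the lowest rat for all 3 of Irak1, Zbtb7a and Gins2. Prrc2a, a large proline-rich protein, stood at 66.7, 62.4, 129.9 and 111 against 261, 281 and 412 CPM (1.78, SE 0.38). For all 8, the adjusted p by edgeR lay between 0.335 and 0.727. Unlike Gins2, most genes on the list of G1/S and DNA replication were lower at day 4. Of its 24 members tested 17 were lower and 7 higher. Their median log2 difference was -0.44 (-0.83 without day 4 rat 2 and -0.27 without day 4 rat 3).

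**Figure D1:**
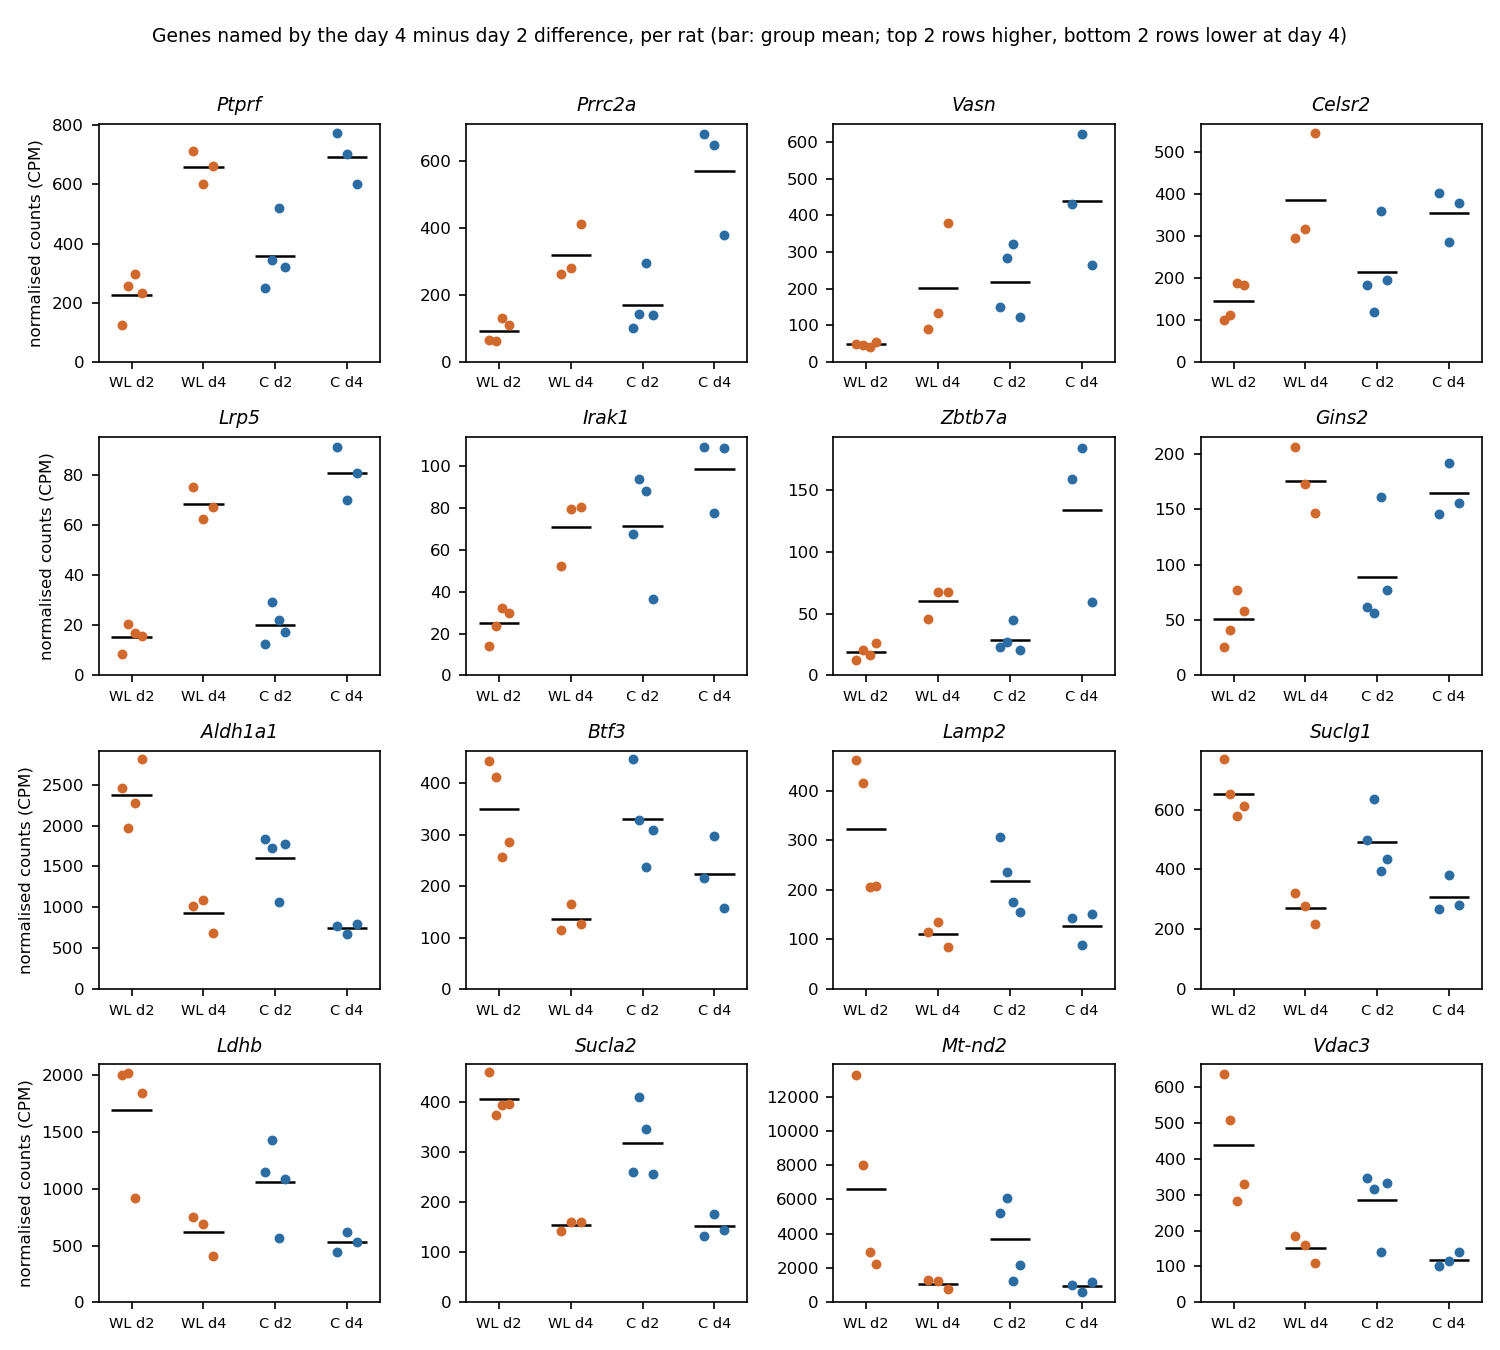
Normalised counts (CPM, linear axis from 0) of the 16 named genes, 1 point per rat, with a bar at the group mean; WL is water-loaded, C control, d2 and d4 the day. In water-loaded rats the days do not overlap in any of the 16 panels, which the choice of genes required; in control rats they do not overlap in 4 of the 8 higher and 6 of the 8 lower genes.

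The same days were then set side by side in the control rats, which share no sample with the water-loaded ones. All 16 named genes differed between days in the same direction in control rats, against 69.3% of the 7496 genes of at least 10 CPM. The control log2 differences were 0.46 to 2.22 for the 8 higher genes and -1.98 to -0.57 for the 8 lower genes. Of the 16, 6 higher and 7 lower genes had an unadjusted p under 0.05 in control rats, where the shares were 3.9% higher and 7.39% lower over all genes, and 5.2% and 5.27% over those of at least 10 CPM. None passed adjustment by edgeR. The days did not overlap in control rats for 4 higher genes (background 4.65% of all genes and 6.14% of those of at least 10 CPM) and 6 lower genes (4.82% and 4.27%). The interaction had an unadjusted p under 0.05 for 0 of the 16, the smallest being 0.0573. Zbtb7a stood at 22.8, 26.7, 45.2 and 20.4 CPM in day 2 and 159, 184 and 59.1 CPM in day 4 control rats (2.22, SE 0.43). Prrc2a stood at 102, 143, 294 and 141 against 681, 648 and 379 CPM (1.74, SE 0.38). Irak1 had the smallest control difference of the higher genes (0.46, SE 0.38), with 67.8, 93.7, 87.9 and 36.6 CPM at day 2 and 109, 77.7 and 109 CPM at day 4. Across the 7496 genes the differences of the 2 treatments correlated at r = 0.48 (Spearman 0.52), a description across genes, which are not independent replicates. The edgeR test called 0 genes between days in control rats as well, with 1634 genes at an unadjusted p under 0.05 and 543 called by DESeq2.

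**Figure D2:**
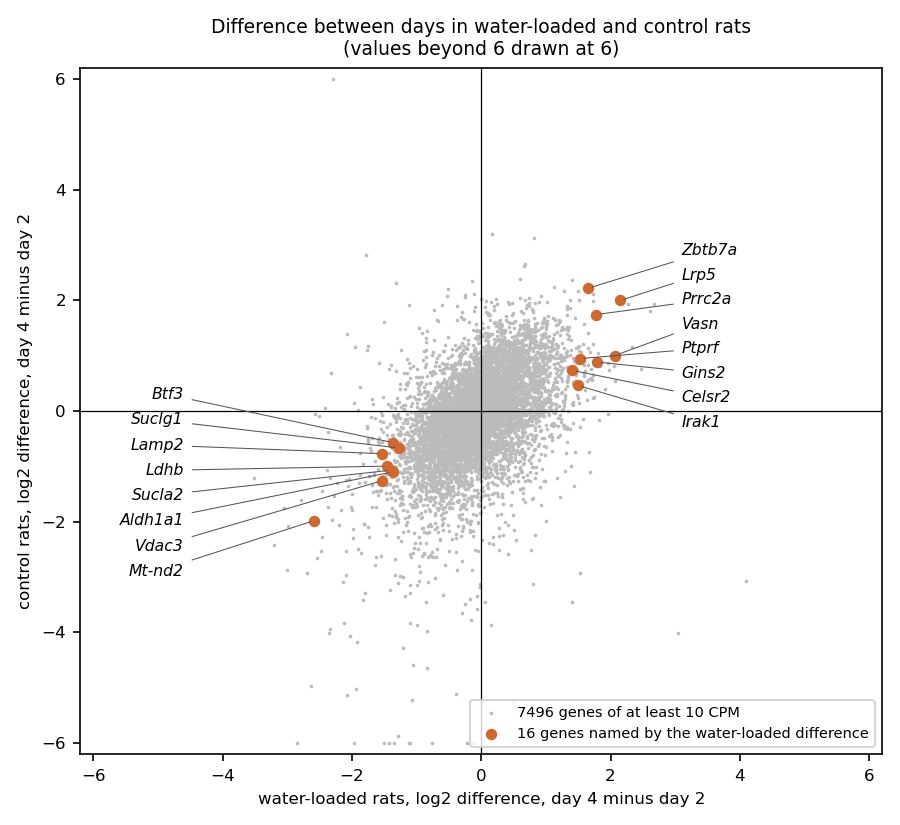
Log2 difference between day 4 and day 2 in water-loaded rats (horizontal axis) and control rats (vertical axis) for 7496 genes of at least 10 CPM, with the 16 named genes in orange. The 16 lie at the upper right and lower left, so that each has the same sign in both treatments.

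Whether a difference between days depended on the water load was tested directly. By edgeR, 0 of 14472 genes were called for this interaction (0%), with 487 higher (3.37%) and 143 lower (0.988%) at an unadjusted p under 0.05, and DESeq2 called 154. The 4 genes with the smallest p in each direction, among those of at least 10 CPM, are given as values that did not pass. Gmnn, the geminin inhibitor of replication licensing, stood at 27.3, 16.7, 13.03 and 10.2 CPM at day 2 and 10.2, 18.3 and 1.34 CPM at day 4 of the load. In control rats it stood at 24.8, 16.5, 6.76 and 12.7 CPM and then at 0.0428, 0.0309 and 0.0922 CPM, where a count of 3 is 0.0642, 0.0926 and 0.0553 CPM, so no fold is given. Zfp846, a zinc finger protein, stood at 20.7, 3.80, 10.5 and 12.4 against 5.40, 23.7 and 1.40 CPM in water-loaded and at 39.0, 28.1, 14.5 and 8.49 against 0.0428, 0.0617 and 0.0922 CPM in control rats. Both genes were present in every day 4 water-loaded rat and near that limit in every day 4 control rat. Vwa2, a secreted matrix protein, stood at 18.2, 12.9, 10.7 and 13.4 against 50.9, 32.9 and 25.9 CPM in water-loaded rats, higher in every day 4 rat. In control rats it stood at 77.0, 61.7, 67.5 and 14.6 against 0.856, 9.01 and 5.35 CPM, lower in every day 4 rat (interaction 4.85, SE 1.40). Hs3st1, a heparan sulfate sulfotransferase, stood at 15.5, 4.27, 20.5 and 9.24 against 1.42, 15.5 and 16.9 CPM in water-loaded and at 5.25, 28.8, 24.6 and 34.6 against 0.257, 0 and 0.535 CPM in control rats.

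On the other side stood Acta1, Ubtd1, Ndufs7 and Cd99. Ndufs7, a subunit of respiratory complex I, stood at 395, 412, 189 and 512 CPM at day 2 and 376, 359.6 and 390.1 CPM at day 4 of the load. In control rats it stood at 256, 193, 281 and 310.2 CPM and 751, 903 and 385 CPM (interaction -1.39, SE 0.47). Cd99, a surface glycoprotein, stood at 176, 183, 83.8 and 148 against 166, 179 and 233 CPM in water-loaded and at 157, 84.1, 150.2 and 130.2 against 495, 550 and 241 CPM in control rats (interaction -1.33, SE 0.48). Ubtd1, a ubiquitin-like domain protein, stood at 107, 149, 68.8 and 123 against 80.9, 85.3 and 95.4 CPM and, in control rats, at 137, 115, 129.9 and 133 against 362, 337 and 150.4 CPM (interaction -1.50, SE 0.49). In these 3 genes the days overlapped in water-loaded rats, and every day 4 control rat lay above every day 2 control rat. Acta1, skeletal muscle actin, was at 0 in all 4 day 2 control rats and at 0.0642, 0.0926 and 4.92 CPM in the day 4 ones. In day 4 control rats 1 and 2 that is a count of 3, so the control difference rests on rat 3. Acta1 ranged over 0.0923 to 50.0 CPM in day 2 and 0.101 to 12.6 CPM in day 4 water-loaded rats, so no fold is given.

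Among the 7 fixed genes of water and sodium transport, none passed between the days of the load. Aqp2 (ENSRNOG00000054378), the apical water channel under vasopressin control, stood at 9242, 13909, 9255 and 18067 CPM at day 2 and at 10719, 13203 and 18459 CPM at day 4. The ranges overlapped almost fully, and the highest rats of the days differed by little, at 18067 and 18459 CPM. The log2 difference was 0.16 (SE 0.31), and an exact two-sided permutation test of mean log2 CPM gave p = 0.543, where the 35 arrangements allow no p under 0.0286. Its sign depended on day 4 rat 3: without that rat the log2 difference was -0.095. It was 0.29 with day 2 rats 1 and 2 alone and 0.048 with rats 3 and 4 alone, and ran from -0.095 to 0.38 as each of the 7 rats was left out. In control rats Aqp2 stood at 19132, 21435, 26942 and 29975 CPM and then at 42896, 55370 and 25379 CPM (log2 difference 0.76, SE 0.31), and the interaction was -0.60 (SE 0.44). Every water-loaded rat of days 2 and 4 lay below every control rat of those days.

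Aqp3 (ENSRNOG00000009797), the main basolateral water channel of principal cells, stood at 460.3, 673, 837 and 1382 CPM at day 2 and at 1369, 1586 and 1201 CPM at day 4. The 3 day 4 rats lay above 3 of the 4 day 2 rats, and day 2 rat 4 lay within the day 4 range. The log2 difference was 0.73 (SE 0.35), and the exact two-sided permutation test gave p = 0.114. It was 1.29 with day 2 rats 1 and 2 alone and 0.32 with rats 3 and 4 alone. In control rats it was 0.92 (SE 0.35), from 1781, 3746, 3416 and 2549.6 CPM to 5147, 7583 and 3626 CPM. Aqp4, the other basolateral channel, stood at 141, 194, 89.8 and 125 against 97.9, 146 and 101 CPM (-0.26, SE 0.41). Avpr2, the V2 receptor, stood at 525, 438, 384 and 716 against 355, 551 and 758 CPM (0.11, SE 0.31). The days overlapped in both, and each had a difference smaller than its standard error. With day 2 rats 1 and 2 alone the differences were -0.54 and 0.20, and with rats 3 and 4 alone 0.10 and 0.012.

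The days overlapped for all 3 subunits of the epithelial sodium channel. Scnn1a, the alpha subunit, stood at 864, 771, 520.4 and 1108 CPM at day 2 and 949, 849 and 918 CPM at day 4 (0.15, SE 0.26). Scnn1b stood at 873, 977, 1115 and 1292 against 1039.5, 939 and 1188 CPM (-0.012, SE 0.27), and its difference was 0.19 with day 2 rats 1 and 2 alone and -0.19 with rats 3 and 4 alone. Scnn1g stood at 424, 600.1, 662 and 503 against 657, 788 and 632 CPM (0.34, SE 0.23). In control rats Scnn1g had a difference of the other sign, from 806, 1096, 737 and 657 CPM to 548, 422 and 671 CPM (-0.59, SE 0.24). Its interaction was 0.93 (SE 0.33, unadjusted p = 0.0116 by edgeR), which did not pass adjustment. Atp1b1, the beta subunit of the sodium pump, stood at 7184, 6190, 6667 and 6021 against 3287, 4521 and 3707 CPM (-0.76, SE 0.25). It was lower in every day 4 rat, as were 7.75% of genes of at least 10 CPM. Kcnj1, the ROMK potassium channel, stood at 747, 514, 403 and 272 against 247, 288 and 343 CPM and overlapped (-0.73, SE 0.34). Its difference was -1.11 and -0.21 with rats 1 and 2 or rats 3 and 4 alone as day 2, and -0.43 without day 2 rat 1.

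**Figure D3:**
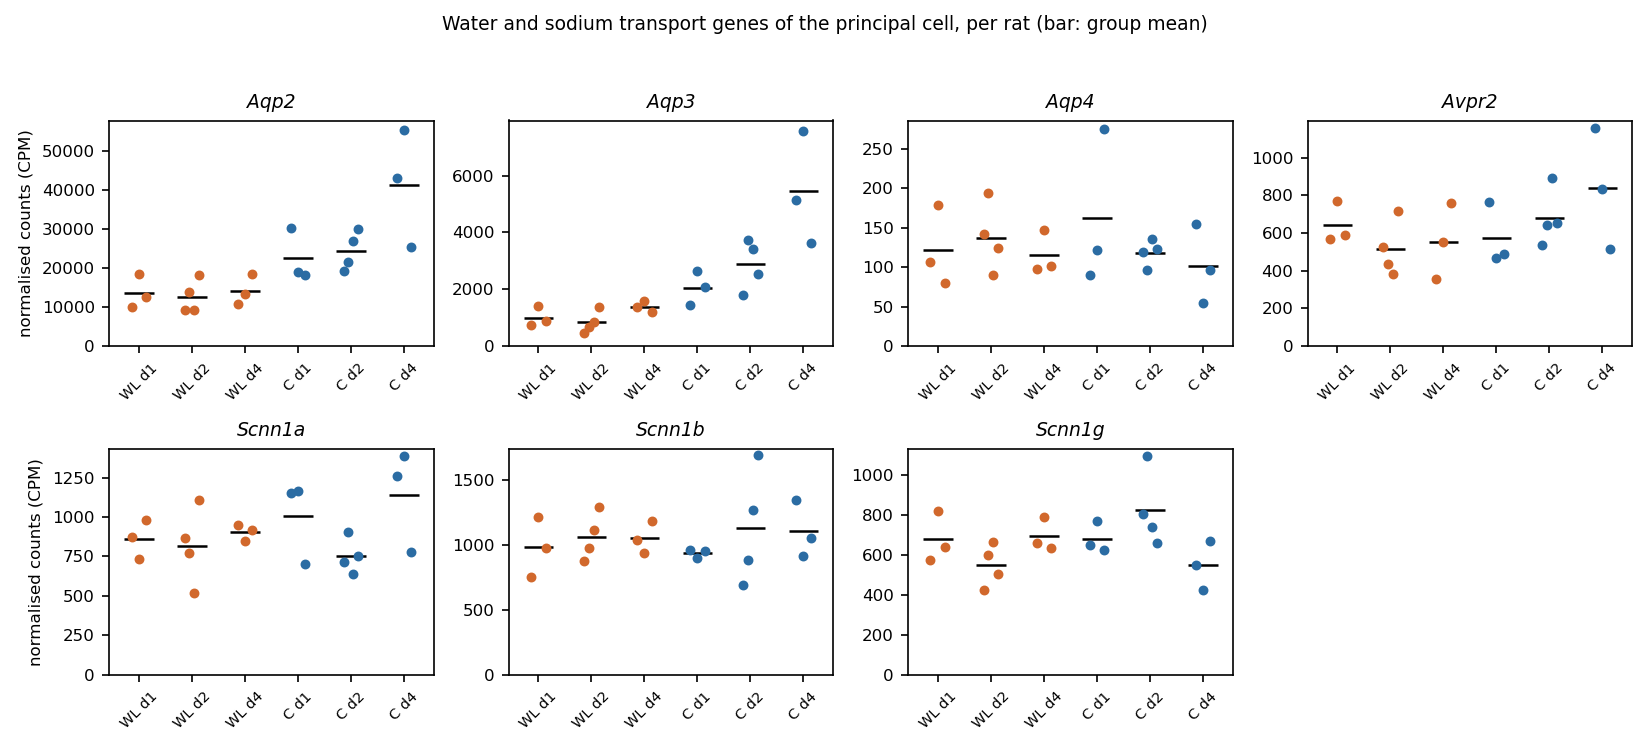
Normalised counts (CPM, linear axis from 0) of 7 transport genes in all 20 rats, 1 point per rat with a bar at the group mean; WL is water-loaded, C control, d1, d2 and d4 the day. Aqp2 lies between 9242 and 18459 CPM in the water-loaded rats of days 2 and 4, and Aqp3 between 460.3 and 1586 CPM.

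The list of vasopressin signalling and water transport had 26 members tested, 13 higher and 13 lower at day 4, with a median log2 difference of 0.021 beside -0.040 over all genes. The 3 members with the smallest p were higher. Vamp2, a SNARE protein of vesicles that carry aquaporin-2, stood at 58.3, 47.6, 53.7 and 62.5 against 112, 108 and 122 CPM (1.03, SE 0.31). Prkaca, a catalytic subunit of protein kinase A, stood at 23.4, 18.96, 9.82 and 11.4 against 45.9, 42.2 and 47.3 CPM (1.504, SE 0.56). Adcy6, the adenylyl cyclase coupled to the V2 receptor, stood at 171, 215, 329 and 343 against 470, 418 and 498 CPM (0.80, SE 0.31), with 1.26 and 0.46 when day 2 was rats 1 and 2 or rats 3 and 4 alone. None of the 3 overlapped between days, which held for 8.32% of genes of at least 10 CPM in the upward direction, and none passed. In control rats their log2 differences were 0.53, 1.17 and 0.51. The 26 members of sodium and potassium transport had 14 higher and 12 lower, with a median of 0.036. With day 2 rats 1 and 2 alone the medians of these lists were 0.015 and 0.13, with rats 3 and 4 alone 0.071 and 0.15, and without day 4 rat 3 -0.23 and -0.066.

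The ducts carried the markers of their own cells in every library. The 14 principal cell markers tested summed to 16163 to 28579 CPM at day 2 and 20233 to 30069 CPM at day 4. The 11 type B markers summed to 12292 to 19349 and 15381 to 18865 CPM, and the 9 type A markers to 4661 to 5793 and 4426 to 5726 CPM. Both lists held proton pump subunits and shared Atp6v1c2, so these sums do not compare the types with each other. In whole ducts, fewer cells of a type and less RNA per cell cannot be told apart. Of the type A markers 4 were higher and 5 lower at day 4, with a median of -0.23, and of the type B markers 5 were higher and 6 lower, with a median of -0.047. The signs of these medians were not stable: with day 2 rats 1 and 2 alone they were 0.36 and 0.43, with rats 3 and 4 alone -0.067 and -0.17, and without day 2 rat 3 0.41 and 0.046. The type A median was also 0.14 and 0.14 without day 4 rat 1 or 2, and the type B median 0.071 without day 4 rat 3. The members named next are those of smallest p. Kit, a receptor tyrosine kinase of type A cells, stood at 94.2, 90.3, 194 and 100.1 CPM at day 2 and 271, 289 and 281 CPM at day 4 (1.23, SE 0.33). Day 2 rat 3 was the highest of its group and lay below every day 4 rat. Slc4a1, the basolateral chloride and bicarbonate exchanger of type A cells, stood at 740.4, 1361, 1669 and 1169 against 2271, 2134 and 1700.2 CPM (0.72, SE 0.29). Atp6v0d2, a subunit of the proton pump, went the other way, at 2349.9, 1914, 1759.5 and 1514 against 1222, 1097 and 719.8 CPM (-0.90, SE 0.41). Hmx2, a homeobox factor on the type B list, stood at 773, 1138, 794 and 874 against 1347, 1222 and 1549.6 CPM (0.62, SE 0.20). On the type B list Slc4a9 and Insrr were higher as well (log2 difference 0.86 and 0.36), beside the 6 members that were lower. With day 2 rats 1 and 2 alone these 2 differences were 1.7 and 0.57, and with rats 3 and 4 alone 0.33 and 0.17. Kit, Slc4a1 and Hmx2 were also higher at day 4 in control rats, by 0.95, 0.78 and 0.64 on the log2 scale. Of the 20 proton pump subunits 17 were lower at day 4, 4 of them at an unadjusted p under 0.05, beside 2.78% of all genes. Their median was -0.33 (-0.17 with day 2 rats 1 and 2 alone, -0.22 without day 2 rat 4).

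The 13 protein genes of the mitochondrial genome were all lower at day 4, with a median log2 difference of -2.01. By edgeR 10 had an unadjusted p under 0.05, beside 2.78% of all genes lower at that p, and 0 passed adjustment. Mt-nd2, a complex I subunit, stood at 13267, 8020.2, 2913 and 2219 CPM at day 2 and 1326, 1222 and 757 CPM at day 4 (-2.58, SE 0.62). Mt-co2, a complex IV subunit, stood at 12836, 9548, 2184 and 964 against 932, 1223 and 610.2 CPM (-2.79, SE 0.74). Day 2 rats 1 and 2 were higher than rats 3 and 4 for both genes, and day 2 rat 4 overlapped the day 4 rats for Mt-co2. The median difference was -2.66 with day 2 rats 1 and 2 alone and -0.67 with rats 3 and 4 alone. In control rats the share of reads on these genes was 8.46, 9.76, 2.85 and 4.06% at day 2, again with rats 1 and 2 above rats 3 and 4, and 3.26, 2.70 and 4.06% at day 4, with a median difference of -1.21. When these genes were left out of the counts, 0 genes were called and Aldh1a1 had a log2 difference of -1.37. With day 2 rats 1 and 2 alone the log2 difference of Mt-nd2 was -3.27, and with rats 3 and 4 alone -1.22. For Mt-co2 it was -3.60 and -0.77.

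**Figure D4:**
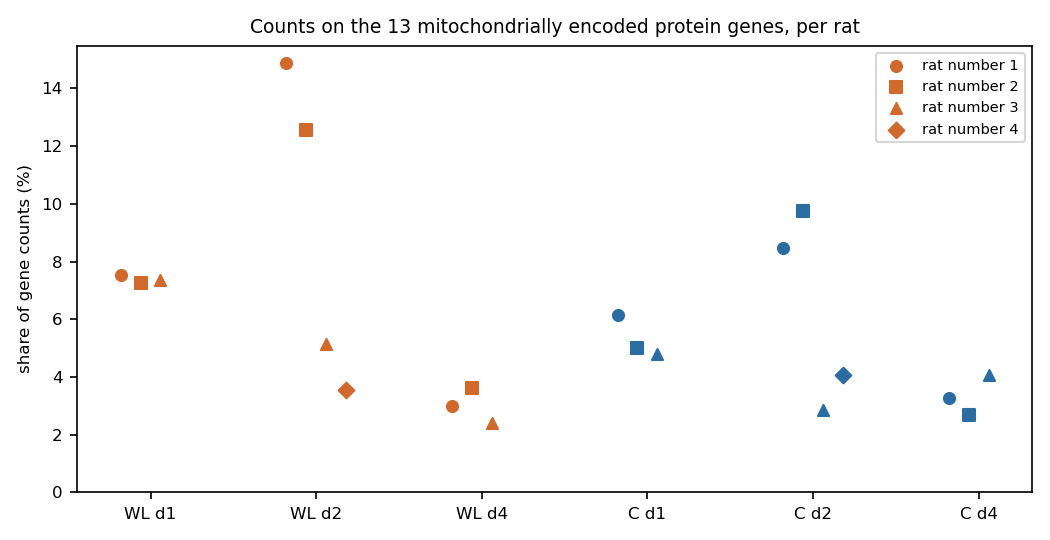
Share of gene counts (%, linear axis from 0) on the 13 mitochondrially encoded protein genes in each of the 20 rats, by group; WL is water-loaded, C control, d1, d2 and d4 the day, and symbols give the number of the rat. Day 2 water-loaded rats 1 and 2 lie at 14.9% and 12.6%, above rats 3 and 4 at 5.15% and 3.55% and the day 4 rats at 2.39% to 3.601%.

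Genes of energy metabolism encoded in the nucleus were mostly lower at day 4. In glycolysis 14 of 16 members were lower and 2 higher, with a median of -0.46 and 5 lower at an unadjusted p under 0.05. Over all genes tested, 47.7% were higher at day 4 and 2.78% were lower at that p by edgeR. The tricarboxylic acid cycle had 17 of 18 lower (-0.42), and nuclear subunits of oxidative phosphorylation 22 of 27 (-0.50, and -0.32 without day 2 rat 4). Fatty acid oxidation had 15 of 17 lower (-0.45). The medians in control rats were -0.17, -0.27, -0.048 and -0.28, in that order. Atp5b, the catalytic beta subunit of ATP synthase, stood at 8311, 9506, 6461 and 13856 CPM at day 2 and 5058, 4825 and 3917 CPM at day 4 (-1.05, SE 0.28). Ndufv2, a complex I subunit, stood at 924, 869, 418 and 576 against 284, 241 and 195 CPM (-1.54, SE 0.43). Pgk1, a glycolytic kinase, stood at 3185, 2406, 2444 and 3823 against 1838, 1878 and 1211 CPM (-0.85, SE 0.28). In all 3 genes every day 4 rat lay below every day 2 rat, as held for 7.75% of genes of at least 10 CPM. Ldha, the other lactate dehydrogenase subunit, stood at 2086, 1992, 507 and 489 against 323, 461 and 231 CPM (-1.91, SE 0.66), and its difference was -0.56 with day 2 rats 3 and 4 alone. Slc2a1, the GLUT1 glucose carrier, was higher at day 4, at 77.9, 171, 81.9 and 93.3 against 198, 276 and 330.2 CPM (1.34, SE 0.37). In control rats Slc2a1 was level (-0.0042, SE 0.37), and the interaction had an unadjusted p of 0.0194 by edgeR and did not pass.

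Genes of protein synthesis, folding and turnover had medians below that of all genes as well. Of 29 cytoplasmic ribosomal proteins 24 were lower, 6 at an unadjusted p under 0.05 (-0.58, and -0.31 with day 2 rats 3 and 4 alone). The share of all genes lower at that p was 2.78%. Heat shock chaperones had 9 of 12 lower (-0.51, and -0.78 with day 2 rats 1 and 2 alone) and the unfolded protein response 16 of 20 (-0.43). Hspd1, the chaperonin of the mitochondrial matrix, stood at 667, 739, 491 and 897 CPM at day 2 and 306, 393 and 211 CPM at day 4 (-1.21, SE 0.34). Hsp90ab1, a cytosolic chaperone, was at -0.97 (SE 0.34) and Hsp90b1, its relative in the endoplasmic reticulum, at -0.89 (SE 0.32). Messenger RNA splicing factors had 15 of 21 lower (-0.40, -0.22 with day 2 rats 3 and 4 alone and -0.26 without day 4 rat 1), with Hnrnpa2b1 at -1.004 (SE 0.38). The proteasome had 21 of 31 lower but a median of only -0.21. Of 23 lysosome and autophagy genes 15 were lower, 7 at an unadjusted p under 0.05 (-0.29, and -0.086 with day 2 rats 1 and 2 alone). Ctsd, the protease cathepsin D, stood at 9216, 8669, 6684 and 13654 against 5089, 4937 and 4455 CPM (-0.99, SE 0.30), and Becn1, which starts autophagosomes, at 213, 204, 191 and 305 against 145, 116 and 149 CPM (-0.74, SE 0.24).

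Several lists of signalling and transcription had medians above that of all genes. The immediate-early genes had 16 of 20 members higher, 5 at an unadjusted p under 0.05, beside 2.06% of all genes. Their median was 0.72 (0.41 in control rats). Without day 4 rat 1, 2 or 3 that median was 1.10, 0.46 or 0.45. Jun, a subunit of AP-1, stood at 109, 74.9, 102 and 109 CPM at day 2 and 106, 206 and 648 CPM at day 4 (1.70, SE 0.63). Day 4 rat 3 was the highest, and without it the difference was 0.65. Nr4a1, an orphan nuclear receptor, stood at 18.8, 30.8, 69.2 and 31.7 against 72.5, 151 and 118 CPM (1.59, SE 0.65). Feedback inhibitors of MAP kinase signalling had 10 of 13 higher (0.61), the Notch pathway 12 of 16 (0.57) and the Wnt pathway 10 of 14 (0.45). The MAP kinase median was 1.54 with day 2 rats 1 and 2 alone and 1.13 without day 2 rat 3. The Notch median was 0.35 without day 2 rat 1 and 0.86 without day 2 rat 2. Notch3, a Notch receptor, stood at 1.46, 6.38, 8.94 and 7.03 against 29.0, 34.8 and 44.9 CPM (2.60, SE 0.81), with no overlap. Of genes of at least 10 CPM, 8.32% lay wholly above. Transcription factors of the collecting duct had 17 of 22 higher (0.37), with Hoxb6 at 1.34 (SE 0.46), and the circadian clock 10 of 15 (0.54, and 0.34 without day 2 rat 4). The median of the transcription factors was 0.56 without day 4 rat 1 and 0.16 without day 4 rat 3. Ece1, which makes endothelin, stood at 9.77, 12.9, 22.05 and 17.6 against 45.2, 37.4 and 57.5 CPM (1.58, SE 0.54).

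Cytoskeletal genes were divided. All 11 tubulins were lower (-0.41, and 0.013 in control rats), with Tubb5 at 685, 641, 371 and 498 CPM at day 2 and 335, 233 and 147 CPM at day 4 (-1.20, SE 0.43). The tubulin median was -0.66 with day 2 rats 1 and 2 alone and -0.063 with rats 3 and 4 alone, where that of all genes was 0.0008. The actin list had 9 higher and 11 lower. Actb, cytoplasmic beta-actin, stood at 1812, 1512, 492 and 1630.2 against 186, 304 and 356 CPM (-2.27, SE 0.66), lower in every day 4 rat. Actn4, an actin crosslinker, stood at 130.4, 196, 190.2 and 176 against 345, 334 and 454 CPM (1.12, SE 0.39), higher in every one. Of genes of at least 10 CPM, 7.75% lay wholly below and 8.32% wholly above. Krt8, a keratin of simple epithelia, was at -1 (SE 0.31). Tight junction and adhesion genes had 12 of 16 higher (0.35), with Tjp3 at 0.86 (SE 0.34) and Cldn4 at 0.77 (SE 0.39). Their median was 0.14 with day 2 rats 3 and 4 alone, 0.17 without day 2 rat 2 and 0.21 without day 4 rat 3. Mitosis and spindle genes had 22 of 23 lower with a median of -1.16, and 0 at an unadjusted p under 0.05. With day 2 rats 3 and 4 alone the median was -0.59. In control rats the median was -1.81. Tubulin, actin, ribosomal protein, Pgk1, Ldha and mitochondrial genes have near-identical copies elsewhere in the genome. Reads with several matches were not counted on any gene (21.3% to 26.9% of a library's total over the 20 libraries). The values of these genes therefore leave out such reads and may be too low.

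**Figure D5:**
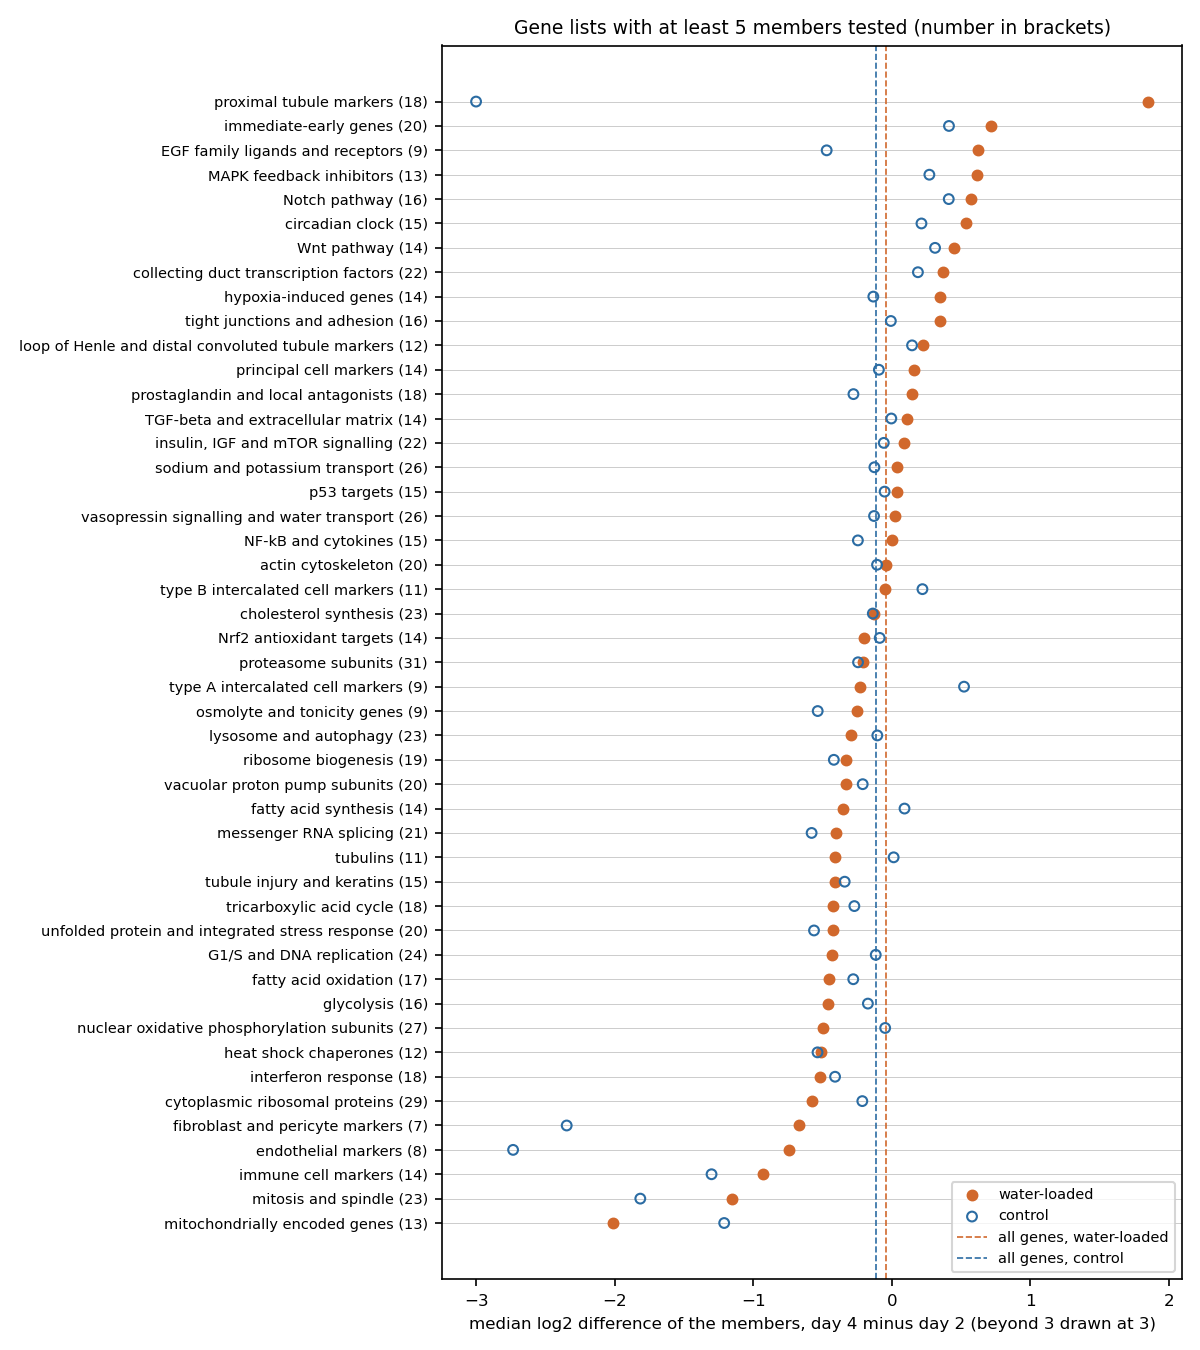
Median log2 difference between day 4 and day 2 over the members of each list with at least 5 genes tested, in water-loaded (filled) and control rats (open); dashed lines give the median over all genes tested. The mitochondrially encoded genes lie lowest in water-loaded rats at -2.01, and the immediate-early genes lie at 0.72; values beyond 3 in either direction are drawn at 3, and markers of cells outside the duct rest partly on genes at 0.

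Markers of cells outside the duct were present in all 7 libraries. The 18 proximal tubule markers summed to 228 to 267 CPM at day 2 and 192 to 468 CPM at day 4. Of these 12 were higher at day 4, with Slc13a1 at 0 in all 4 day 2 rats and in 2 of 3 day 4 rats. Several of these markers were at or near 0, so their fitted differences depend on the prior count and no median is read from them. The 12 loop and distal convoluted tubule markers summed to 871, 916, 1052 and 5765 CPM at day 2 and to 365, 479 and 1346 CPM at day 4. Day 2 rat 4, with 5765 CPM, also had the highest sums of its group for glycolysis, the tricarboxylic acid cycle and nuclear oxidative phosphorylation. Its sum for fatty acid oxidation was the lowest of the group. All 8 endothelial markers were lower at day 4, with sums of 165 to 803 and 33.9 to 452 CPM, and 13 of 14 immune markers, with sums of 176 to 770.4 and 177 to 324 CPM. In both lists the ranges of the sums overlapped between days and 0 members had an unadjusted p under 0.05 by edgeR. The 7 fibroblast and pericyte markers summed to 32.6 to 124 and 17.5 to 82.6 CPM. In control rats the proximal tubule markers summed to 2955 CPM in day 2 rat 1 and to 287, 322 and 341 CPM in the others of that day. At day 4 they summed to 260, 293 and 162 CPM. Of these 18 markers 9 had an unadjusted interaction p under 0.05 by edgeR, beside 3.37% of all genes higher and 0.988% lower. The endothelial sums of control rats were 92.4 to 925 and 82.2 to 275 CPM. The part of these markers in the other differences was not tested.

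The named genes of the 2 directions differed in transcript length. The implied transcript length, from the ratio of counts to deposited FPKM, had a median of 4621 bases in the 8 higher named genes (2737 to 10536) and of 1556 bases in the 8 lower ones (484 to 2220). Over the 7496 genes of at least 10 CPM with a length, in 5 groups of equal size by length, the median log2 difference was -0.086, -0.16, -0.091, 0.0084 and 0.16 from the shortest to the longest. In control rats it was -0.015, -0.095, -0.038, -0.0085 and 0.061. The part of length in the differences of single genes was not tested.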

How the data were processed

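Whole-number counts of reads per gene for 32545 Ensembl genes were deposited by the authors, with FPKM values of the same libraries. Trimmomatic 0.32, STAR 2.4.0.1, SAMtools and HTSeq appear in the submitters' processing notes, with rn6 as the build. Neither annotation nor use of strand is given there, so overlapping and antisense genes cannot be separated. The 5 summary rows were dropped (31.5% to 35.6% of a library's total, mostly reads with several matches). The deposited FPKM values served only for implied lengths and as alternatives on log2(FPKM + 1) and log2(FPKM + 0.1).

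Counts of all 20 libraries entered 1 edgeR 4.0.16 quasi-likelihood fit (R 4.3.3, robust, TMM, filterByExpr on group), with contrasts of day 4 minus day 2 in water-loaded rats, in control rats, and their difference, with Benjamini-Hochberg adjustment over 14472 genes and a threshold of 0.05. Group values are CPM after TMM, mean ± SD over rats, listed in the order of the labelled rat numbers. The SE of a log2 difference is its size divided by the square root of the F value of its quasi-likelihood test. For 2 genes, Aqp2 and Aqp3, an exact permutation test was added (prior count 2). Scripts were tested on simulated data whose spread was set well below the common spread of these libraries. That is a check of the code and does not show what could be detected here. Alternatives used DESeq2 1.42.0, limma 3.58.1, other filters, scalings and covariates, and each library left out.

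The 49 gene lists (886 entries, of which 17 were not in the file and 74 not tested) and the members were chosen with earlier results of these data known, and lists got no set test. Where a symbol had several identifiers, the one with the most reads was used. The rule for names took 7 fixed transport genes, the 8 genes per direction of smallest p with at least 10 CPM, no overlap and a proper symbol, up to 3 members per list of smallest p, and the 4 interaction genes per direction of smallest p at 10 CPM; Slc13a1 was chosen after its values were seen. The labels number the libraries within each group, 1 library per rat, so p-values rest on the spread between libraries. Differences between rats and differences in preparation or amplification cannot be told apart in that spread. Promoters are from RefSeq, matched by symbol.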

Additional observations from a re-analysis of the deposited data

Results flagged for a closer look

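The 4 day 2 water-loaded rats were checked for a rat far from the others in 93 measures, 90 genes and 3 measures of the library. Chance alone gives about 1 in 20 such groups, and 5 were found here. Atp5c1, the gamma subunit of ATP synthase, stood at 2766 CPM in rat 4, where the nearest rat had 1656 CPM. Kit stood at 194 CPM in rat 3, with the nearest at 100.1 CPM. Ldhb was low in rat 3 at 919.9 CPM, with the nearest at 1841 CPM. Slc2a1 stood at 171 CPM in rat 2, with the nearest at 93.3 CPM. Spry1, a feedback inhibitor of growth factor signalling, stood at 104 CPM in rat 3, with the nearest at 34.4 CPM. The log2 difference between days without that rat was -0.66 for Atp5c1, 1.56 for Kit, -1.67 for Ldhb, 1.67 for Slc2a1 and 2.02 for Spry1.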

How the results depend on the processing

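Between days of the water load, edgeR called 0 genes in every alternative except the filter of 50 CPM (2, Aldh1a1 and Ptprf); limma-voom called 1 and DESeq2 78, among them 15 of the 16 named genes. Leaving out any 1 of the 7 libraries gave 0 calls. With the replicate number as a block it was also 0, in the fit of 20 libraries and in that of 7 (smallest adjusted p by edgeR 0.203 and 0.239). Rats of the same number at both days deviated together only weakly (correlations 0.088, 0.024 and 0.020), within the -0.082 to 0.109 of rats of different numbers. With so few rats this cannot decide whether the numbers pair the libraries. In control rats the count of 0 became 10 with a filter of 10 CPM, 30 with 50 CPM, 543 by DESeq2, 4 by limma-voom, 8 on log2(FPKM + 1), 9 on log2(FPKM + 0.1), 20 with detected genes as covariate, 27 in the 14 libraries of days 2 and 4, and 26 with 2 day 1 libraries that stood apart set aside. Leaving out 1 control library gave 0 to 6 (1 without day 2 control rat 3, 6 without day 4 control rat 3). The interaction count was 0 except 154 by DESeq2. The 16 named genes had the same direction in every alternative in which they could be fitted. They were named for days that did not overlap, so leaving out libraries could hardly turn that direction. The 15 called by DESeq2 rest on the same counts. Neither is separate support for these genes. Scnn1b, near 0, turned to 0.014 by limma-voom, 0.229 and 0.23 on the FPKM scales, 0.154 and 0.105 with the block (20 and 7 libraries), 0.065 with detected genes, 0.191 with day 2 rats 1 and 2 alone and 0.0054 with 50 CPM, and to between -0.12 and 0.087 without 1 library. Aqp4 turned to 0.0043 and 0.0049 on the FPKM scales and 0.10 with day 2 rats 3 and 4 alone. Without 1 library Avpr2 ranged from -0.20 to 0.36, Scnn1a from -0.014 to 0.33, Aqp2 from -0.095 to 0.38 by edgeR, and Aqp2 in the permutation test from -0.025 to 0.38. On log2(FPKM + 1) the median of all genes was 0.13, a shift to be subtracted from the list medians on that scale. Lists with a median below that of all genes numbered 29 of 49, and 25 to 32 over the alternatives. The lists of energy metabolism, ribosomes, chaperones, lysosome, tubulins, immediate-early genes, Notch, Wnt and clock lay on the same side of the median of all genes in every alternative run; the vasopressin, sodium transport, actin and intercalated cell lists did not. Depth was lower at day 4. Thinning every library to the smallest left 0 calls, but the main fit had 0 already, so this count says nothing on depth. After thinning, the log2 difference was -1.355 for Aldh1a1 and 1.543 for Ptprf, and the median of all genes was -0.028. Causes of these shifts were not tested. The alternatives with 50 CPM, 14 libraries, 2 libraries set aside, mitochondrial genes left out and control libraries left out were chosen after seeing the data.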
